A study of Mus musculus with 8 samples.

Results

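miR-7, miR-9 and miR-128 are microRNAs (miRNAs) best known from neural tissue, and their reads were followed here through 8 small-RNA libraries of NIH-3T3 cells, an immortalised mouse fibroblast line. The members were the 10 mature arms of 8 mouse hairpins, namely Mir7-1, Mir7-2, Mir7b, Mir9-1, Mir9-2, Mir9-3, Mir128-1 and Mir128-2, out of 1645 arms that could be told apart by their first 20 bases. Of the 10 arms, 7 had at least 1 read, against 597 of all arms. The members were chosen by the counts of 0 of their guides at serum 12 h, so the loss at that time is described without a test.

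Serum-starved cells at 0 h (labelled G0) had been without serum for 48 h, and serum at 20% was then returned for 12 h (G1), 16 h (S), 20 h (G2/M) or 24 h (G1). The contact inhibition experiment started from plates at 12% confluency, with an asynchronous sample taken on day 0 and G0 samples after 3 and 5 days. Growth serum was 10% for all groups of both experiments, so only the serum experiment used 20%. No gene was altered in any group, all groups were the same line, and each condition was 1 library with no replicate. The question set by the design was how small RNAs differ between arrested cells and released or asynchronous cells.

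A miRNA hairpin is cut into a duplex whose strands come from its 5′ and 3′ arms. The strand kept in the Argonaute protein is the guide and the other is the passenger. The guide finds its targets mostly through the seed, bases 2 to 8 from its 5′ end, so a shift of the 5′ end changes the seed while a change at the 3′ end does not. miR-7 is abundant in brain and in endocrine cells and is bound by the circular RNA Cdr1as. miR-9 is made in neural progenitors and neurons, where both of its arms are active. miR-128 is a miRNA of mature neurons.

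The RefSeq mature sequences (build GRCm38.p6) show which reads can name a hairpin. The seed is in capitals.
miR-7a-5p: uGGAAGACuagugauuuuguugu
miR-7b-5p: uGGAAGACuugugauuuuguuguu
miR-7a-1-3p: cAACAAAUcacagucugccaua
miR-7a-2-3p: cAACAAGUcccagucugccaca
miR-7b-3p: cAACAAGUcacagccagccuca
miR-9-5p: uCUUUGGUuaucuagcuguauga
miR-9-3p: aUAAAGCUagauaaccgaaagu
miR-128-3p: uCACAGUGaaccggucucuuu
miR-128-1-5p: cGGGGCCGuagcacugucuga
miR-128-2-5p: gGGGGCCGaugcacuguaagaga
miR-7a-5p and miR-7b-5p share their seed and differ by A10U, counted from 1 at the 5′ end of miR-7a-5p. miR-7a-5p can come from Mir7-1 or Mir7-2, both miR-9 arms from any of the 3 Mir9 hairpins, and miR-128-3p from Mir128-1 or Mir128-2. The passengers of miR-7 and miR-128 differ between hairpins: miR-7a-1-3p differs from miR-7a-2-3p by A7G, A10C and U21C.

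By the GENCODE M21 annotation of GRCm38, Mir7-1 (chromosome 13, 58392779 to 58392886, minus strand) lay in an intron of Hnrnpk, the gene of a widely expressed RNA-binding protein. Mir7-2 (chromosome 7, 78888277 to 78888373, plus strand) and Mir7b (chromosome 17, 56242988 to 56243098, plus strand) overlapped no other gene. Mir9-1 (chromosome 3, 88215598 to 88215686, plus strand) lay in an intron of Gm3764, Mir9-2 (chromosome 13, 83738814 to 83738885, plus strand) in an exon of C130071C03Rik and Mir9-3 (chromosome 7, 79505264 to 79505353, plus strand) in an intron of Mir9-3hg, all long non-coding RNA genes. Mir128-1 (chromosome 1, 128202361 to 128202430, plus strand) lay in an intron of R3hdm1 and Mir128-2 (chromosome 9, 112118636 to 112118711, minus strand) in an intron of Arpp21, both protein-coding.

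The libraries held 707202 to 8512472 reads, of which the number counted for a miRNA lay between 131571 (serum 24 h) and 854514 (serum 16 h). The serum 12 h library stood apart in how few different inserts it held, as described below. The serum 0 h library stood apart by epithelial markers, a list of 7 made of miR-200 family members, miR-203-3p and miR-205-5p. The list summed to 2411 counts per 1000000 miRNA reads (CPM) there and to between 0 and 58.0 CPM in the other 7 libraries. Of these markers miR-205-5p went the other way, with 0 reads at serum 0 h and 12 at 20 h. Of 3 blood cell markers, miR-142a-3p had 62 reads at serum 0 h and none elsewhere. The blood markers miR-223-3p and miR-451a had 0 reads at serum 0 h and at most 4 in any library. The part of the epithelial and blood markers in the serum 0 h values below was not tested. Fibroblast markers fitted the label, with 5 of 7 listed markers in the table, all read in every library, at a summed 86186 to 527753 CPM. Of 8 neural markers listed, miR-124-3p was not among the RefSeq sequences used and was not analysed. The neural markers miR-137-3p, miR-153-3p and miR-338-3p had no read. Few reads were seen of miR-138-5p, miR-129-5p and miR-219a-5p, at most 20 in any library. The neural marker list summed to 227 to 625 CPM, most of it miR-218-5p, which is also made outside neural tissue.

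miR-7a-5p, the guide of Mir7-1 and Mir7-2, was the member with the most reads, 4302 in all. It had 119 reads at serum 0 h, 0 at 12 h, 1303 at 16 h, 217 at 20 h and 331 at 24 h, and 441, 1003 and 888 reads on contact days 0, 3 and 5. Scaled for depth by TMM (a method that sets each library's total so that most miRNAs balance), these were 396, 0, 1370, 1049 and 2096 CPM at serum 0, 12, 16, 20 and 24 h, and 2082, 2930 and 3386 CPM on contact days 0, 3 and 5. The count of 0 allows up to 10.4 CPM at 12 h, taken as 3 counts per library. Apart from 12 h the lowest level was at serum 0 h, and the highest was on contact day 5. In such bulk libraries fewer cells holding a miRNA and less of it per cell cannot be told apart. The neighbours in that order at serum 24 h (1876 to 2335 CPM, 95% Poisson interval) and contact day 0 (1892 to 2286 CPM) did not differ beyond counting error. Intervals here cover counting error only, since the reads carry no molecular identifiers.

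**Figure D1:**
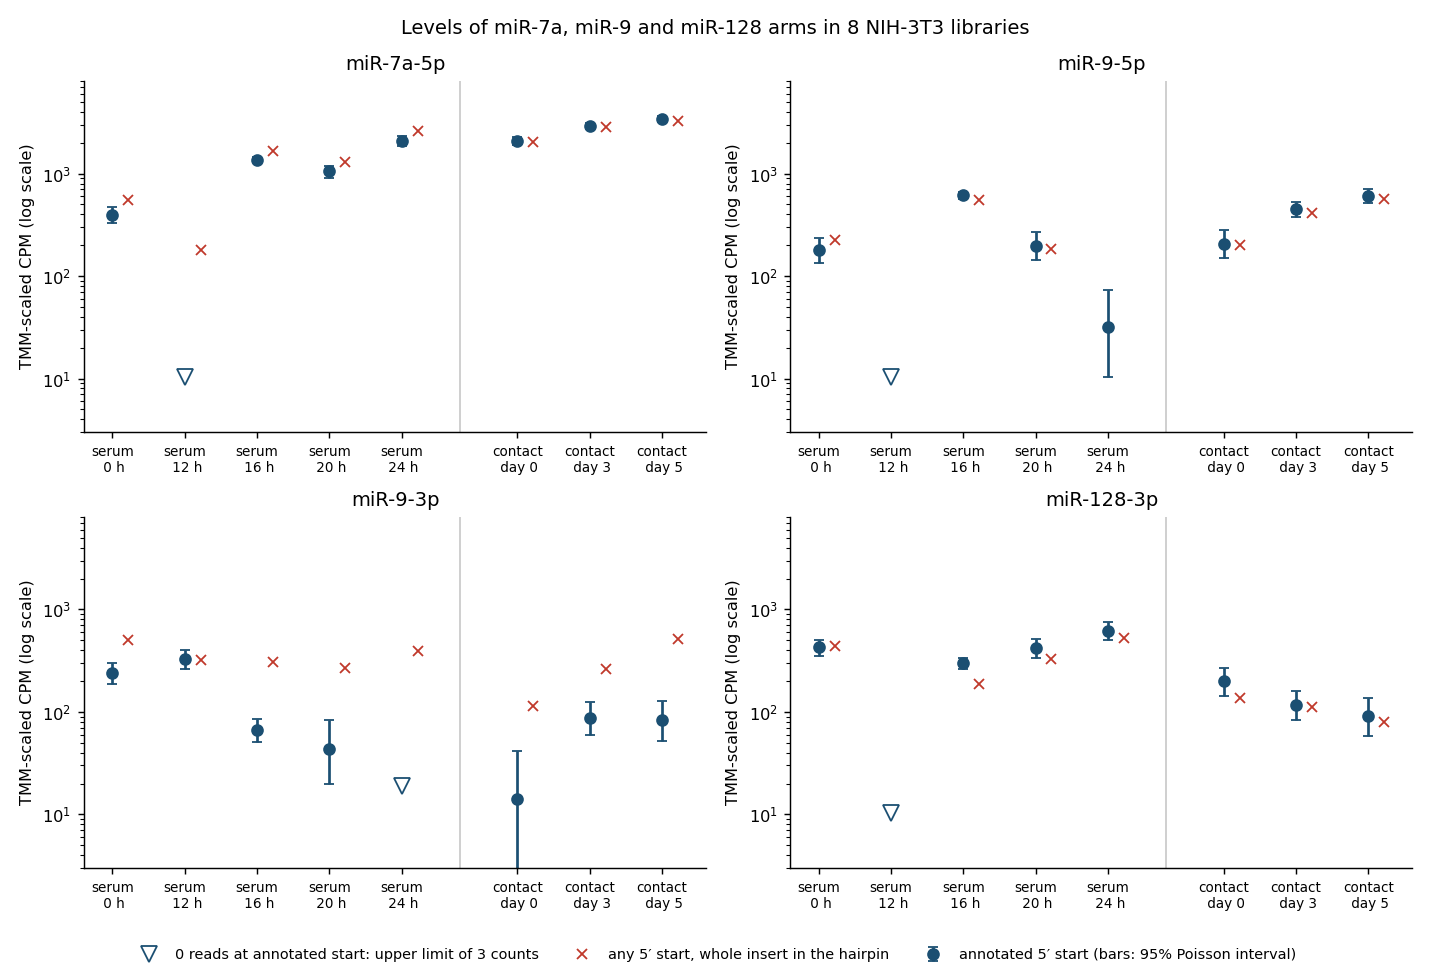
Level of 4 arms in each library, in TMM-scaled CPM on a log axis, with 1 library per point; circles count reads with the annotated 5′ start, bars are 95% Poisson intervals, open triangles mark the limit of 3 counts where no read was seen, and crosses count reads with any 5′ start whose whole insert lies in the hairpin. At serum 12 h the 3 guides miR-7a-5p, miR-9-5p and miR-128-3p sit at the 10.4 CPM limit, while miR-9-3p has 327 CPM.

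At serum 0 h miR-7a-5p stood at 0.29 times its level at 16 h (95% exact conditional binomial interval 0.237 to 0.349), 0.38 times that at 20 h (0.299 to 0.474) and 0.19 times that at 24 h (0.152 to 0.233). It was thus more than 2-fold lower in the starved library than in each of these 3 released libraries. Of 189 arms with at least 100 reads in 1 of these libraries, 18 were at least 2-fold below all 3 with every interval excluding 1, which is 9.52%. Contact-arrested cells showed the other order. miR-7a-5p was 1.41 times its day 0 level on day 3 (1.26 to 1.58) and 1.63 times on day 5 (1.45 to 1.83), and 1.16 times higher on day 5 than on day 3 (1.05 to 1.27). Both contact ratios stayed under 2-fold, a size that 22.1% of 131 arms passed in the higher direction on day 3 and 39.7% of 136 arms on day 5.

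miR-7b-5p, the product of Mir7b, had 3 reads in all, 2 at serum 16 h and 1 on contact day 3. The other 6 libraries held none, which allows up to 19.0 CPM in the shallowest (24 h). The miR-7 made in these cells was therefore read almost wholly as the miR-7a form. Its passengers told the hairpins apart. miR-7a-1-3p, the passenger of Mir7-1, had 28, 0, 42, 5 and 2 reads at serum 0, 12, 16, 20 and 24 h and 9, 17 and 1 reads on contact days 0, 3 and 5. miR-7a-2-3p and miR-7b-3p had 0 reads in each of the 8 libraries, which at 16 h, the deepest, allows up to 3.15 CPM.

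By its first 20 bases, the passenger was highest at serum 0 h, where the guide was lowest apart from 12 h. At serum 0 h miR-7a-1-3p had 93.1 CPM (61.9 to 134.6), against 44.2 CPM at 16 h (31.8 to 59.7), 24.2 at 20 h and 12.7 at 24 h. The serum 0 h level was 2.11 times that of 16 h (1.26 to 3.48), 3.85 times that of 20 h (1.47 to 12.8) and 7.35 times that of 24 h, where only 2 reads were seen (1.85 to 63.7). Of the 189 arms above, 5.29% were at least 2-fold higher at serum 0 h than in all 3 released libraries; miR-7a-1-3p is not among the 189, having under 100 reads in each. None of the 28 reads at serum 0 h matched the hairpin to its 3′ end, although their first 20 bases name Mir7-1. Counting only reads that match in full, with any 5′ start, serum 0 h had 7 reads (23.3 CPM), against 42 reads (44.2 CPM) at 16 h and 5 reads (24.2 CPM) at 20 h, so the higher level at serum 0 h rests on reads with unmatched 3′ ends. On contact day 5 a single read (3.81 CPM) stood against 9 on day 0 (42.5 CPM), a ratio of 0.09 (0.002 to 0.648).

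Guide reads that run past the shared stretch also name a hairpin. The most common miR-7a-5p insert was 24 nt, 1 base longer than the RefSeq entry, and Mir7-1 and Mir7-2 differ from the base after it.
24-nt insert: tGGAAGACtagtgattttgttgtt
Longer guide inserts gave 76 reads for Mir7-1, found at serum 16 h (35 reads), 20 h (2) and on contact days 0, 3 and 5 (6, 8 and 25). Mir7-2 had 12, which were all in the contact libraries with 3, 4 and 5 reads on days 0, 3 and 5. Mir7-1 ends such a read in a T that could also be added after cutting, whereas Mir7-2 does not, so the Mir7-1 figure may hold reads of either. By passengers and longer guides matched in full, Mir7-1 had 164 reads, Mir7-2 12 and Mir7b 3.

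The 24-nt form made up 100% of the 113 hairpin-matching miR-7a-5p reads with the annotated start at serum 0 h (95% exact binomial interval 96.8 to 100). These 113 reads were 1 distinct insert, in a library with a median of 26 reads per insert, which the interval does not take into account. Its share at 16, 20 and 24 h was 86.5%, 95.5% and 81.9%. In the contact experiment its share on day 0 was 84.8% (81.0 to 88.1). Its share on day 3 was 76.8% (73.9 to 79.5), and on day 5 it was 67.8% (64.5 to 71.0). The 23-nt form took 11.8%, 16.7% and 24.4% on the same days. The intervals of the 24-nt share did not overlap between any pair of contact days, and the 24-nt share was smaller on contact days 3 and 5 than on day 0. It was not smaller in the other G0 library, serum 0 h, and the same shares over all arms were not counted. Whether other libraries of the same conditions would show this cannot be known from 1 library each.

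Some miR-7a-5p reads began several bases inside the guide and so lack its seed. They ended where the 24-nt insert ends in 546 of 602 reads (90.7%), and the 5 most frequent of these inserts matched only Mir7-1 and Mir7-2 among the GENCODE M21 transcripts. The commonest such insert started 6 bases later (224 reads). Next came inserts that started 7 bases later (165 reads) and 4 bases later (113 reads, 52 of them at serum 12 h). Those starting 6 and 4 bases later are shown.
6 bases later: actagtgattttgttgtt
4 bases later: agactagtgattttgttgtt
Reads starting at least 4 bases later were 52 of 165 at serum 0 h (31.5%, 95% exact binomial interval 24.5 to 39.2), 52 of 52 at 12 h, 285 of 1569 at 16 h (18.2%, 16.3 to 20.2), 69 of 268 at 20 h (25.7%, 20.6 to 31.4) and 87 of 408 at 24 h (21.3%, 17.4 to 25.6). On contact days 0, 3 and 5 they were 10 of 430 (2.33%, 1.12 to 4.24), 35 of 966 (3.62%, 2.54 to 5.00) and 12 of 854 (1.41%, 0.728 to 2.44). Every serum library thus held a larger share than every contact library. The median over all arms with 20 or more reads was 0% in each library, and arms with over 10% were 3.41% to 5.24% of arms in the serum libraries and 0.575% to 1.08% in the contact libraries. The experiments differ in culture and in library composition (marker oligonucleotides took 62.2% to 94.7% of the serum reads and at most 0.039% of the contact reads), and these cannot be told apart.

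miR-9-5p, the guide of the 3 Mir9 hairpins, had 1042 reads. It had 54, 0, 586, 41 and 5 reads at serum 0, 12, 16, 20 and 24 h, which were 180, 0, 616, 198 and 31.7 CPM, and 44, 153 and 159 reads on contact days 0, 3 and 5, which were 208, 447 and 606 CPM. Its highest level in the serum experiment was at 16 h, and at 24 h few reads were seen; the 0 at 12 h is taken up below. None of the 5 reads at 24 h matched a hairpin to its end: each carried an added A, so whole-insert matches were 0 at 24 h as well as at 12 h. At 24 h its level was 0.051 times that at 16 h (0.0166 to 0.121) and 0.16 times that at 20 h (0.0493 to 0.404). Serum 0 h and 20 h did not differ beyond counting error (ratio 0.906, 0.592 to 1.39).

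In contact-arrested cells miR-9-5p stood at 2.15 times its day 0 level on day 3 (1.53 to 3.08) and 2.92 times on day 5 (2.08 to 4.17). A level at least 2-fold higher on day 5 was found for 39.7% of 136 arms (above), so passing 2-fold there does not set miR-9-5p apart. The day 5 level was 1.36 times that of day 3 (1.08 to 1.71).

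miR-9-3p, the other strand, behaved differently depending on which 5′ end was counted. With the annotated start it had 72, 94, 63, 9 and 0 reads at serum 0, 12, 16, 20 and 24 h and 3, 30 and 22 on contact days 0, 3 and 5. Most of its reads in the other libraries started 1 base later, which moves the seed by 1 base. The common inserts of both kinds are shown with bases 2 to 8 in capitals.
annotated start: aTAAAGCTagataaccgaaagt
1 base later: tAAAGCTAgataaccgaaagta
Of the reads matching the hairpin in full, the later start made up 79 of 150 at serum 0 h (52.7%, 95% exact binomial interval 44.4 to 60.9), 0 of 93 at 12 h (0%, up to 3.89), 235 of 293 at 16 h (80.2%, 75.2 to 84.6), 47 of 56 at 20 h (83.9%, 71.7 to 92.4) and 62 of 62 at 24 h (100%, 94.2 to 100). On contact days 0, 3 and 5 it was 22 of 24 (91.7%, 73.0 to 99.0), 63 of 89 (70.8%, 60.2 to 79.9) and 112 of 134 (83.6%, 76.2 to 89.4). The later start thus had the larger count in every library but serum 12 h, where no read had it. At serum 0 h the counts were close, 79 against 71 with the annotated start. The interval there (44.4 to 60.9) lay on both sides of an even split, so no main start can be named for serum 0 h. The 93 reads at 12 h were only 2 distinct inserts, which their interval does not take into account. An annotated start that is not the main one is unusual but not rare: over all libraries it was so for 25 of 235 arms with at least 100 reads (10.6%).

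**Figure D2:**
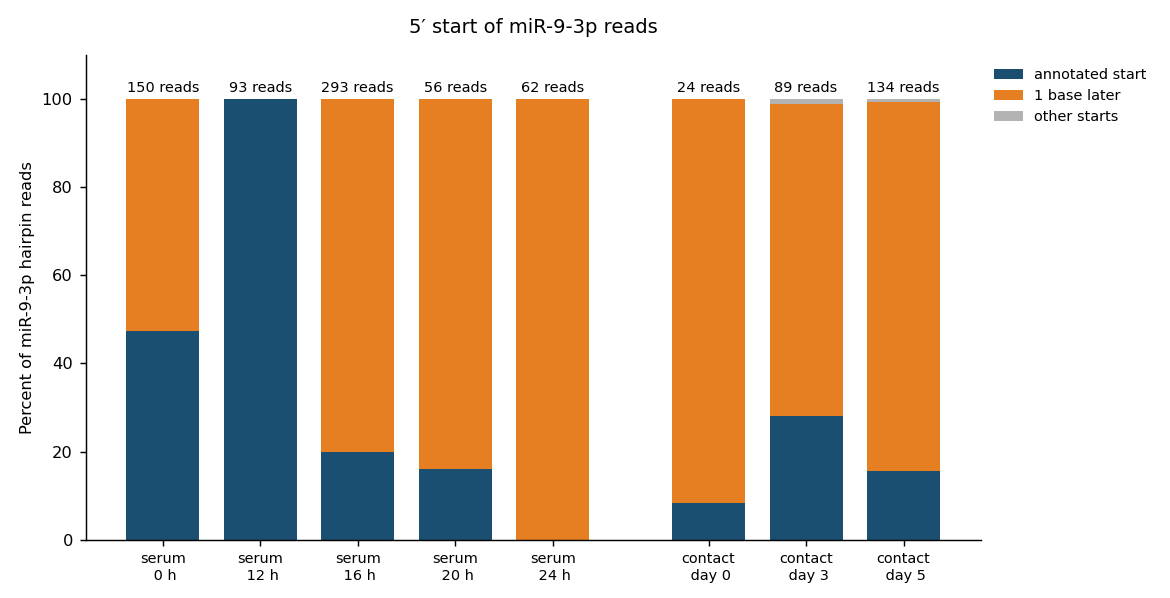
Share of miR-9-3p reads, matching the hairpin in full, by 5′ start in each of the 8 libraries, with the number of reads above each bar. The later start holds 52.7% to 100% in 7 libraries and 0% at serum 12 h.

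With both starts added, miR-9-3p had 499 CPM at serum 0 h, 323 at 12 h, 308 at 16 h, 271 at 20 h and 393 at 24 h, a range of less than 2-fold, and 113, 260 and 511 CPM on contact days 0, 3 and 5. At 12 and 24 h, where no whole-insert read of miR-9-5p was seen, miR-9-3p gave 100% of the miR-9 reads (93 of 93, 96.1 to 100, and 62 of 62, 94.2 to 100). Its share was 68.8% at serum 0 h, 35.8% at 16 h and 59.6% at 20 h, and 35.8%, 38.5% and 47.3% on contact days 0, 3 and 5. The 93 reads at 12 h were 2 inserts of 47 and 46 reads, which the interval there does not take into account. With 12 h set aside, the arms of the pooled Mir9 precursors were still not read in a fixed ratio. Both were higher in contact arrest, where miR-9-3p with any start was 2.29 times its day 0 level on day 3 (1.45 to 3.77) and 4.51 times on day 5 (2.91 to 7.29). No read of either arm ran far enough to name Mir9-1, Mir9-2 or Mir9-3.

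miR-128-3p, the guide of Mir128-1 and Mir128-2, had 701 reads. Its level at serum 0 h was 426 CPM. It had 0, 284, 86 and 97 reads at 12, 16, 20 and 24 h, which were 0, 299, 416 and 614 CPM, and 42, 40 and 24 reads on contact days 0, 3 and 5, which were 198, 117 and 91.5 CPM. Apart from 12 h, every serum library lay above every contact library. Serum 0 h and 20 h did not differ beyond counting error (ratio 1.02, 0.773 to 1.36), and 24 h was 2.06 times 16 h (1.62 to 2.60). In contact arrest it moved opposite to miR-7a-5p and miR-9-5p, at 0.59 times its day 0 level on day 3 (0.372 to 0.931) and 0.46 times on day 5 (0.267 to 0.780). A level at least 2-fold lower was found for 10.7% of 131 arms on day 3 and 22.1% of 136 arms on day 5. Counting only reads that match a hairpin to their end, the ratios were 0.811 (0.487 to 1.36) and 0.585 (0.317 to 1.06), whose intervals include 1.

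**Figure D3:**
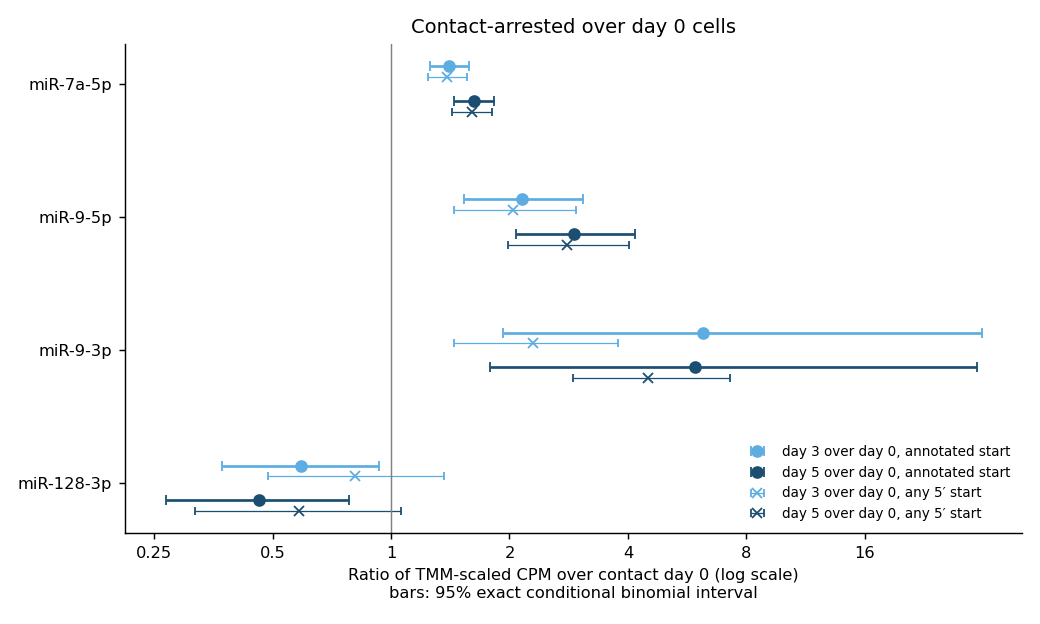
Ratio of TMM-scaled CPM on contact days 3 and 5 over day 0, on a log axis, for 4 arms; circles count the annotated start and crosses any 5′ start with the whole insert in the hairpin, and bars are 95% exact conditional binomial intervals for 1 library a side. miR-7a-5p, miR-9-5p and miR-9-3p lie above 1 and miR-128-3p below, with the crosses of miR-128-3p at 0.811 and 0.585 reaching across 1.

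Many miR-128-3p reads carried a 3′ end absent from the hairpins. Of its 701 reads 171 did not match to the end, 130 of them by 1 or more added A. The unmatched share was 37.3% at serum 16 h (106 of 284, 31.7 to 43.2), 27.9% at 20 h, 13.4% at 24 h and 5.47% at serum 0 h, and 31.0%, 12.5% and 12.5% on contact days 0, 3 and 5. The median over arms with 20 or more reads was 12.7% at 16 h and 5.92% at serum 0 h, so miR-128-3p was well above the middle at 16 h, where 29.1% of 261 arms exceeded 30%. In these shares over all arms, a read whose arm could not be settled from the hairpins also counted as unmatched. The 29.1% may therefore be too high. In miR-7a-5p a smaller share was unmatched, 243 of 4302 reads, of which 160 ended in added A. In miR-9-5p added T was the more frequent, with 48 of 96 unmatched reads against 34 with added A.

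The passengers of miR-128 were all but unseen. miR-128-1-5p had 1 read (serum 16 h) and miR-128-2-5p none in any of the 8 libraries. Guide reads with 1 or more T past the RefSeq end match Mir128-1 and not Mir128-2, and there were 98: 14 at serum 0 h, 31 at 16 h, 22 at 20 h, 23 at 24 h, and 4, 3 and 1 on contact days 0, 3 and 5. A T added after cutting would look the same, so these reads do not separate the hairpins with certainty. No read named Mir128-2.

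The 3 guides had 0 reads at serum 12 h, along with miR-7a-1-3p, and what that library could have shown was measured from its other miRNAs. Among 89 arms with at least 100 reads at each of 16, 20 and 24 h, 1 was at 0 at 12 h, which is 1.12%, and that arm was miR-7a-5p. The same count with each of the other released libraries in turn gave 0 of 82 at 16 h, 0 of 82 at 20 h and 0 of 99 at 24 h. The arm next lowest relative to the other libraries was miR-186-5p, with 7 reads at 12 h and 927, 273 and 110 reads at 16, 20 and 24 h, followed by miR-22-5p with 85 reads. With a minimum of 20 reads, 13 of 171 arms were at 0 at 12 h (7.6%, 95% exact binomial interval 4.11 to 12.6), against 0, 0 and 1 arm at 16, 20 and 24 h. miR-128-3p was among these 13, together with miR-29a-5p, miR-872-5p and miR-374b-5p at like levels. miR-9-5p entered no such set, since it had 5 reads at 24 h.

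**Figure D4:**
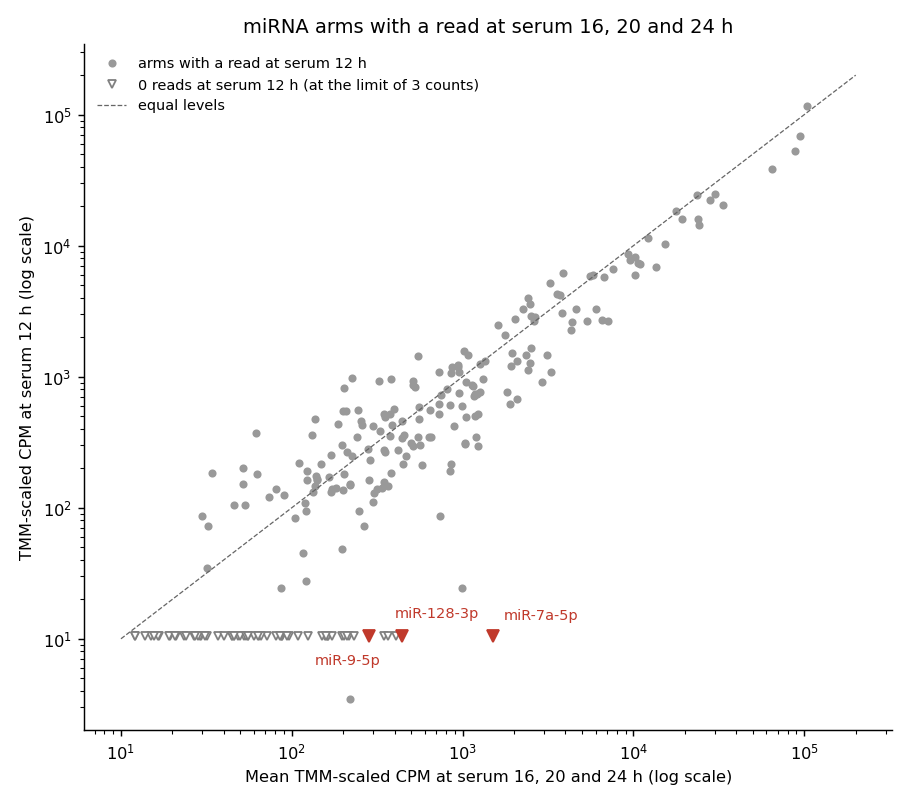
Level of each miRNA arm with a read at serum 16, 20 and 24 h: TMM-scaled CPM at serum 12 h against the mean of the other 3 libraries, both on log axes, with arms at 0 reads drawn as triangles at the limit of 3 counts and the dashed line marking equal levels. miR-7a-5p lies farthest to the right among the arms at 0, with miR-128-3p next, and miR-9-5p lies among other arms at 0.

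The 12 h library held few distinct inserts, each read many times. Inserts of 18 to 26 nt that matched a hairpin in full numbered 540 at 12 h, with a median of 62 reads each and 7.41% with fewer than 10 reads. The other 7 libraries held 1020 to 3043 such inserts, with medians of 3 to 26 reads and 25.1% to 70.5% with fewer than 10 reads. In bins of 10 reads the fullest at 12 h was 41 to 50 reads, with 60 inserts. At a common depth of 131571 miRNA reads, 12 h showed 208 arms, against 264 to 356 in the other libraries.

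**Figure D5:**
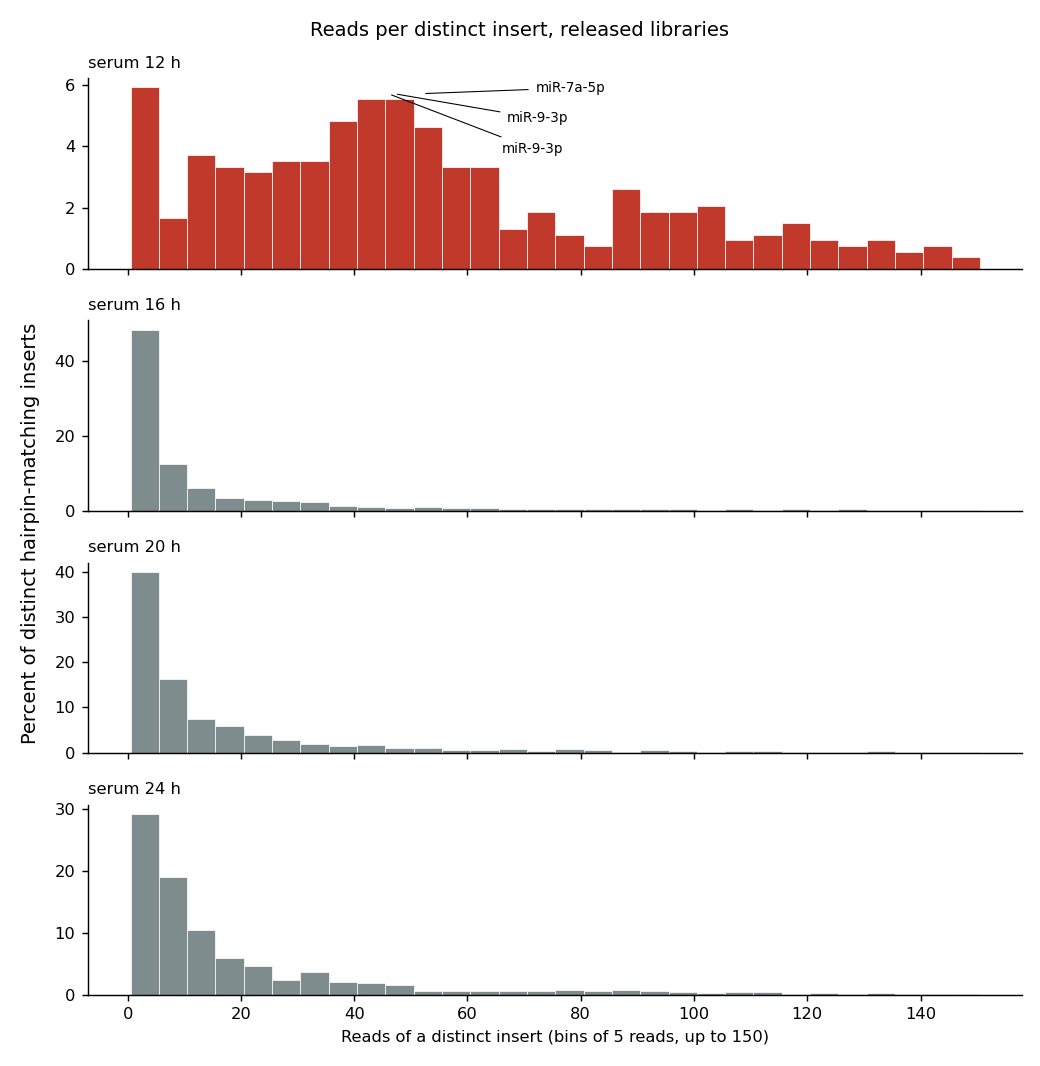
Distribution of reads per distinct hairpin-matching insert at serum 12, 16, 20 and 24 h, as percent of inserts in bins of 5 reads up to 150 (each panel has its own vertical scale). The 12 h library has a broad hump around 41 to 50 reads beside a narrow bin of 1 to 5 reads (5.93% of inserts), and the 3 member inserts it holds are marked (miR-7a-5p at 52 reads, miR-9-3p at 47 and 46), while the other libraries fall away from their bin of 1 to 5 reads.

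If a typical molecule of that library was read 41 to 50 times, a limit of 3 molecules corresponds to 123 to 150 reads, or 428 to 521 CPM in place of 10.4 CPM. Set against this coarser limit, miR-7a-5p was above it at 16, 20 and 24 h, at 1049 to 2096 CPM. miR-128-3p, at 299 to 614 CPM, lay on both sides of it, and miR-9-5p lay above it at 16 h (616 CPM) and below it at 20 and 24 h (198 and 31.7 CPM). For miR-9-5p and miR-128-3p a fall at 12 h and the few distinct inserts of that library cannot be told apart. The coarser limit rests on an assumed number of reads per molecule in 1 library without replicate (21 of its inserts had 1 read), and the part of the few distinct inserts in the 0 of miR-7a-5p was not tested.

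Nor was miR-7a wholly absent at 12 h. The insert that starts 4 bases later, printed above, was read 52 times there, equal to 181 CPM with any 5′ start, against 1650, 1296 and 2584 CPM at 16, 20 and 24 h. It was the only miR-7a-5p insert of that library. Of the 13 arms at 0 at 12 h, miR-7a-5p was the only one with a hairpin-matching read of another 5′ start. The miR-9-3p reads of that library were likewise 2 inserts, of 47 and 46 reads, both with the annotated start. The main start of an arm at 12 h was set against its main start over the other libraries together. Arms needed 20 or more hairpin-matching reads at 12 h and at least 100 in the others. The main start differed for 10 of 172 arms (5.81%), miR-7a-5p and miR-9-3p among them. Serum 0 h had 5.85% and the other libraries 1.20% to 3.65%, with no member among them. The part of the few distinct inserts in these 5′ starts was not tested.

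The only grouping with more than 1 library a side was the G0 label, so the 3 G0 libraries (serum 0 h, contact days 3 and 5) were compared with 4 others (serum 16, 20 and 24 h, contact day 0), leaving out serum 12 h. Of the 10 member arms 5 passed the filter of 10 CPM in at least 3 libraries, and none of the 5 was called by edgeR, against 0.997% of all 301 arms tested (3 arms). At an unadjusted p under 0.05 there were 34 arms, miR-9-3p among them. miR-9-3p (annotated start) was 2.61 log2 units higher in the G0 libraries (SE 1.16, edgeR adjusted p = 0.404), with 239, 87.6 and 83.9 CPM in G0 (serum 0 h, contact days 3 and 5) and 66.3, 43.5, 0 and 14.2 CPM in the others (serum 16, 20 and 24 h, contact day 0). Its 3 G0 libraries lay above the 4 others, but the difference did not pass the adjusted threshold, and 12 h, left out here, had 327 CPM. With any 5′ start the groups overlapped, at 499, 260 and 511 CPM in G0 and 308, 271, 393 and 113 CPM in the others, in the same order of libraries.

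For the guides the G0 log2 differences were -0.70 for miR-7a-5p (SE 0.79, edgeR adjusted p = 0.662), 0.29 for miR-9-5p (SE 0.93, adjusted p = 0.887) and -0.45 for miR-128-3p (SE 0.61, adjusted p = 0.733), and for miR-7a-1-3p the value was 0.68 (SE 1.26, adjusted p = 0.826). The groups overlapped for each of these 4 arms. miR-7a-5p was low in the starved library and high in the contact-arrested ones, and an interaction term, added after the data were seen, gave a log2 value of 2.54 for the contact minus the serum difference (SE 1.11, edgeR adjusted p = 0.379). It called none of 301 arms (0%), with 34 at an unadjusted p under 0.05. The G0 comparison had 4 residual degrees of freedom, and the interaction term left fewer. With conditions as the only replicates, these p-values measure the spread between libraries that also differ in time and phase.

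Other miRNAs of brain or neural tissue were taken from a list of 18, of which 14 were in the RefSeq table. miR-137-3p, miR-153-3p, miR-338-3p, miR-384-5p and miR-488-3p had no read in any library, and 9 had at least 1. Of these, 8 were tested and none was called, with 2 higher and 6 lower in the G0 libraries and a median log2 difference of -0.56, beside -0.25 over all 301 arms. The most read was miR-134-5p, of the imprinted Dlk1-Dio3 locus, at 344 to 1799 CPM across the 8 libraries, with 99 reads at serum 12 h. miR-218-5p, made from introns of Slit2 and Slit3, had 158, 132, 519, 88 and 55 reads at serum 0 to 24 h and 40, 103 and 130 on contact days 0, 3 and 5. Both were thus read at 12 h. miR-132-3p, an activity-induced miRNA of neurons, had 58 reads at 12 h and between 2 and 48 in the other 7 libraries. miR-138-5p, miR-129-5p and miR-212-3p had no read at 12 h and at most 23 in any library.

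The arms most like each member across libraries were found by Pearson correlation of log2(CPM + 1) among 234 arms with a mean of at least 50 CPM, given as a description since the points share libraries and totals. Over the 8 libraries miR-7a-5p was most like miR-374b-5p (r = 0.988), miR-154-5p (0.987) and miR-542-5p (0.979), and over the 7 without serum 12 h like miR-374b-5p (0.894), miR-154-5p (0.887) and miR-345-3p (0.883). miR-374b-5p and miR-154-5p also had 0 reads at 12 h. miR-128-3p was most like miR-22-5p (0.968), miR-186-5p (0.955) and miR-30a-3p (0.954) over 8 libraries, and like miR-495-3p (0.968), miR-409-3p (0.958) and miR-494-3p (0.958) over 7. miR-9-5p was most like miR-380-5p (0.964), miR-30e-3p (0.961) and miR-181c-5p (0.952) over 8 libraries and miR-362-5p (0.883), miR-34a-5p (0.869) and miR-19b-3p (0.862) over 7. miR-9-3p was most like miR-379-3p (0.813), miR-182-5p (0.778) and miR-322-3p (0.763) over 8 and miR-425-5p (0.907), miR-376a-5p (0.899) and miR-362-3p (0.881) over 7. Apart from the first pair of miR-7a-5p, leaving out serum 12 h replaced the named arms, so the 8-library likeness rests in large part on that library.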

How the data were processed

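Small RNAs of 8 libraries were deposited as distinct 36-nt reads with the count of times each was sequenced, raw and with the 3′ adapter still attached, as the file values show. Library preparation is named in the labels' protocols only by reference to earlier work, and no read caller or filter of the authors is given in the sources used here. Adapters were removed where 6 or more bases were seen (1 mismatch per 8 bases). Inserts of 16 to 30 nt were kept, and marker oligonucleotides (12 shared bases or within 3 edits, edlib 1.3.9.post1) were removed. The origin of these oligonucleotides was not checked. Arms were the 1738 RefSeq mature miRNAs (GRCm38.p6), collapsed by their first 20 bases, less 27 found in another class of small RNA. The table is not complete, and miRNAs outside it were not analysed here. A read counted for an arm when its first 20 bases were identical. Counts with any 5′ start needed the whole insert in the hairpin and 14 bases of overlap with the arm.

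G0 and other libraries were compared by the robust quasi-likelihood test of edgeR 4.0.16 in R 4.3.3, 2-sided and checked on simulated data. The model held the experiment and TMM factors, and an arm was called at a Benjamini-Hochberg adjusted p under 0.05. The SE is the absolute log2 fold change over the square root of the F value. Alternatives were DESeq2 1.42.0, other scalings and filters, other ways of counting, and leaving out each library. Ratios between 2 libraries were taken on TMM-scaled CPM in Python 3.11.15 (scipy 1.17.1). Named miRNAs were every member arm, the 3 most like each member of at least 50 CPM, arms at 0 at serum 12 h and a list of neural miRNAs. Of the marker lists, the fibroblast, neural, epithelial and blood ones are given in the report and the muscle, pluripotent, endocrine and liver ones in the closing section. The members and lists were chosen with earlier results of these data known.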

Additional observations from a re-analysis of the deposited data

Results flagged for a closer look

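Reads that begin inside an annotated arm are outside the counts by annotated start and were seen in several libraries. miR-9-3p reads starting 1 base later numbered 79 at serum 0 h, 235 at 16 h, 47 at 20 h, 62 at 24 h and 22, 63 and 112 on contact days 0, 3 and 5. miR-7a-5p reads starting 6 bases later numbered 18 at serum 0 h, 115 at 16 h, 35 at 20 h, 54 at 24 h and 4, 18 and 4 on contact days 0, 3 and 5. miR-7a-5p reads starting 4 bases later numbered 52 at serum 12 h, 57 at 16 h, 10 at 20 h and 4 on contact day 3. Each lies above the 3 counts that a count of 0 allows, and there are no control libraries to set them against.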

How the results depend on the processing

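The number of arms called between G0 and other libraries was 3, and was 5 with total miRNA reads, 23 by DESeq2, 10 with no filter, 1 with no experiment term and between 0 and 10 on leaving out each library (0 without serum 0 h or serum 24 h, 10 without serum 16 h, 6 without contact day 3, 1 without contact day 5). Member log2 differences, none of them called, changed sign for miR-7a-5p with no experiment term (0.45) and without serum 0 h (0.66), for miR-7a-1-3p without serum 0 h (-0.50) and for miR-9-5p without contact day 0 (-0.68). The cause was not tested. On leaving out each library the values ran from -1.93 to 0.66 for miR-7a-5p, from -0.50 to 1.69 for miR-7a-1-3p and from -0.68 to 1.39 for miR-9-5p. Arms at 0 at serum 12 h were 1 of 89 at a minimum of 100 reads, 3 of 124 at 50, 13 of 171 at 20 and 0 of 82 with any 5′ start, the last 2 added after seeing the data. The contact day 5 over day 0 ratio of miR-7a-5p was 1.23 (1.09 to 1.38) with DESeq2 size factors, which move every arm by -0.41 log2 units on that contrast. Member reads per library stayed within their intervals in 80 of 80 cases with 18 bases, with 1 mismatch and with no adapter needed, and left them in 18 of 80 with any 5′ start. No paired analysis was possible because each condition is 1 library and replicate numbers are shared only as names.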

Other observations

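Markers of other cell types not given in the report were as follows. The muscle list had 1 member in the table, miR-206-3p, with 75, 44, 214, 19 and 54 reads at serum 0, 12, 16, 20 and 24 h and 190, 79 and 39 on contact days 0, 3 and 5. The pluripotent list summed to 695 CPM at serum 12 h, from miR-291a-3p (115 reads) and miR-294-3p (85 reads), and to between 0 and 173 CPM in the other 7 libraries. Of the same list, miR-290a-5p and miR-295-3p had 0 reads at 12 h, and miR-295-3p had its most reads, 38, at serum 0 h. Serum 12 h thus had the highest sum of that list, from part of its members. A distinct insert there had a median of 62 reads, so the number of molecules behind that sum is not known. The endocrine marker miR-375-3p and the liver marker miR-122-5p were not analysed here.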
